A study of Arabidopsis thaliana with 23 samples.

Results

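The pericentromeric H3K27me3 peaks described here are the peaks of the 7 deposited H3K27me3 lists whose summit, the base with most tags, fell on chromosome 1 between 12.5 and 17.0 Mb, on chromosome 2 between 1.5 and 6.5 Mb, on chromosome 3 between 11 and 16 Mb, on chromosome 4 between 1.5 and 6.0 Mb or on chromosome 5 between 9.5 and 14.5 Mb of TAIR10. There were 3665 such peaks among 43219 H3K27me3 peaks on the 5 nuclear chromosomes. The libraries came from whole *Arabidopsis thaliana* seedlings, 12 days old, moved for 3 h onto medium with 50 µM methyl jasmonate (MeJA) or onto mock plates lacking it. The *axe1-5* seedlings carry a mutant allele of *HDA6*, which codes for a histone deacetylase, and the WT is the matching DR5 line in the Col-0 background. H3K27me3 was analysed in *axe1-5* +MeJA (2 libraries), *axe1-5* mock (2), WT +MeJA (1, replicate 2) and WT mock (2), and H4ac in 2 libraries of each of these 4 conditions. The study describes its replicates as independent biological replicates.

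H3K27me3 is laid down by Polycomb repressive complex 2 and in Arabidopsis typically marks single, developmentally silenced genes of the chromosome arms. The heterochromatin around the centromeres is instead rich in transposable elements and satellite repeats and is normally silenced by DNA methylation and H3K9 methylation, a system in which HDA6 takes part. The centromeres themselves consist of long arrays of a satellite of about the length of 1 nucleosome repeat, and a stretch beside centromere 1 is known to hold telomere-like repeats inside the chromosome. Short telomere-like elements in Arabidopsis promoters are known as binding sites of proteins that recruit Polycomb complexes.

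Sequences around 7 summits are printed because they show the kinds of DNA that the pericentromeric peaks sat on. All are the plus strand of the TAIR10.1 RefSeq assembly, whose nuclear chromosomes have the lengths of TAIR10, and capitals in the first 6 mark each copy of the telomere repeat unit TTTAGGG in either orientation (TTTAGGG or CCCTAAA). The 2 sequences with capitals come from chr1:15297876-15298175, around the strongest locus found in all 4 *axe1-5* libraries and no WT library, and from chr4:3221970-3222269, the summit of *axe1-5* mock 2 with most copies on chromosome 4.
*axe1-5* locus, chromosome 1: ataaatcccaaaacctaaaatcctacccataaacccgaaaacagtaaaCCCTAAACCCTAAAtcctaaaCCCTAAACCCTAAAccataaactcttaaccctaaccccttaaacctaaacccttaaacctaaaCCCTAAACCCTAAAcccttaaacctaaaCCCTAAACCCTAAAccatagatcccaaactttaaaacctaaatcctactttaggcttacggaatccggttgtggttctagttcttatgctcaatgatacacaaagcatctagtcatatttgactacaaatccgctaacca
*axe1-5* block, chromosome 4: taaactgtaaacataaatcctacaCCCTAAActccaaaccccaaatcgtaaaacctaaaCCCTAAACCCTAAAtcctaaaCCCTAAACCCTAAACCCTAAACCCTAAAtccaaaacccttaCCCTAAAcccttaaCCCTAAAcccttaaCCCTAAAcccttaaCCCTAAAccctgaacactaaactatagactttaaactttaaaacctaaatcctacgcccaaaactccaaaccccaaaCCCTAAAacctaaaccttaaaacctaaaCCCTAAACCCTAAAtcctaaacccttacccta
They hold 8 and 14 copies of the unit, whereas 4.10% of all 300-base windows of the genome hold at least 1. The next 4 are the first-ranked loci of the other patterns described further on, from chr1:16812844-16813043 (all 7 libraries), chr5:12882842-12883041 (both WT mock libraries and no *axe1-5* library), chr1:16965416-16965615 (both *axe1-5* +MeJA libraries alone) and chr1:16175793-16175992 (WT +MeJA alone), and none of them holds the unit.
All 7 libraries: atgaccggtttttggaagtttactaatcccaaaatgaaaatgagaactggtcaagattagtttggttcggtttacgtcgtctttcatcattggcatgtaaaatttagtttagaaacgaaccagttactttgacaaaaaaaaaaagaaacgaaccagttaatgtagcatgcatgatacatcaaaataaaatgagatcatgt
WT mock: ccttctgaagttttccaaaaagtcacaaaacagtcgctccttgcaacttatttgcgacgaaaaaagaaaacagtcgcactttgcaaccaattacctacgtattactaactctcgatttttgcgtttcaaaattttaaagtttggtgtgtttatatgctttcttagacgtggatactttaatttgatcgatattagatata
*axe1-5* +MeJA: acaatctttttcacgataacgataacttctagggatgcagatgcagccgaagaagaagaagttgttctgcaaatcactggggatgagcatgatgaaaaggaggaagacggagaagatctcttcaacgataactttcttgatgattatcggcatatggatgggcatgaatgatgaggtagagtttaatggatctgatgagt
WT +MeJA: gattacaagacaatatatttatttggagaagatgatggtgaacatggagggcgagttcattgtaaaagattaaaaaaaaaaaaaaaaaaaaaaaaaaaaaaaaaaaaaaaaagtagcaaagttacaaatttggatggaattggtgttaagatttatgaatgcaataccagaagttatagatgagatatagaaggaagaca
In the seventh sequence, chr5:12052937-12053236 under a WT mock 1 peak, capitals mark 1 unit of a 178-bp tandem satellite. The 122 bases after it were 87.7% identical to the bases 178 positions before them.
Satellite, chromosome 5: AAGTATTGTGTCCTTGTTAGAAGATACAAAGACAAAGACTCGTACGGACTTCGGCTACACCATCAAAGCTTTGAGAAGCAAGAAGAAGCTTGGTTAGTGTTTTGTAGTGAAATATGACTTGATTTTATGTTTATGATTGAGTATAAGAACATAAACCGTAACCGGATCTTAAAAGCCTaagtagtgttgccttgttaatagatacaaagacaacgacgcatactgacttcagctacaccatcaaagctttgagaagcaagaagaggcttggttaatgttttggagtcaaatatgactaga

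The windows covered 24.0 Mb, 20.1% of the nuclear genome, and held 6.93% of its protein-coding genes and 70.8% of its annotated pseudogenes, the class that in this annotation holds many transposon-derived loci. The libraries kept 577986 to 8879066 tags after removal of duplicates, and MACS, the peak caller, modelled a fragment of 52 to 61 bp in 5 lists but of 209 and 282 bp in *axe1-5* +MeJA 2 and *axe1-5* mock 1, whose peaks were several times longer than those of the other lists. Of 9 known Polycomb targets, 8 had a summit in every list and *STM* in 6, and 4 constitutively expressed genes had none, *UBQ10* inside the windows among them. The 3 lists of fewest tags (WT +MeJA 2, *axe1-5* mock 2 and WT mock 1) stood apart by their short peaks, so that values are given per library throughout.

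Counted per Mb, H3K27me3 peaks were thinner on the ground around the centromeres than on the arms in each list. Density was 31.8, 21.3, 19.8 and 37.8 peaks per Mb in *axe1-5* +MeJA 1 and 2 and *axe1-5* mock 1 and 2, and 5.67, 24.0 and 12.2 per Mb in WT +MeJA 2, WT mock 1 and WT mock 2. On the arms the same lists held 87.8, 55.0, 47.0 and 80.2 peaks per Mb in *axe1-5* and 23.3, 51.8 and 70.7 per Mb in WT. WT mock 1 lay within the *axe1-5* range in the windows, and the other WT lists lay below it. By bases under peaks, windows and arms were closer in the lists of fewest tags. These were 2.01% against 2.07% in *axe1-5* mock 2, 1.05% against 1.29% in WT mock 1 and 0.387% against 0.4765% in WT +MeJA 2. In *axe1-5* +MeJA 1 and 2 they were 3.41% against 7.96% and 6.87% against 16.7%. In *axe1-5* mock 1 they were 7.69% against 18.4%, and in WT mock 2 1.105% against 7.02%.

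Whether loss of HDA6 moved the mark toward the pericentromere was asked with the share of each list's peaks that fell in the windows. The share was 8.37% and 8.92% in the *axe1-5* +MeJA libraries and 9.63% and 10.6% in the *axe1-5* mock libraries, against 5.79% in WT +MeJA and 10.5% and 4.19% in WT mock. The mean was 9.39% ± 0.975 in *axe1-5* (SD, n = 4) and 6.81% ± 3.26 in WT (SD, n = 3), and the difference of 2.57 percentage points did not pass an exact permutation test over libraries (two-sided p = 0.229, smallest possible 0.0571). The groups overlapped through WT mock 1 alone. As described further on, 289 of the 576 pericentromeric peaks of that list sat on a 178-bp satellite. Without satellite summits, an alternative chosen after the data had been seen, the shares averaged 9.27% in *axe1-5* and 4.60% in WT and no longer overlapped, at the smallest p that the exact permutation test allows (0.0571). That alternative removes mostly WT peaks, and others lowered the difference, to 0.704 percentage points with a score of at least 100, 0.962 with shortened windows and 1.26 without WT mock 2. By bases under peaks the direction turned, with a mean pericentromeric share of 12.09% in *axe1-5* and 12.62% in WT. That share was 9.75%, 9.39%, 9.555% and 19.65% in *axe1-5* +MeJA 1 and 2 and *axe1-5* mock 1 and 2. In WT +MeJA 2, WT mock 1 and WT mock 2 it was 16.99%, 17.04% and 3.82%. No test was made of the share of bases.

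Between mock-treated seedlings the share averaged 10.1% in *axe1-5* and 7.32% in WT (exact permutation p = 0.667, n = 2 each, smallest possible 0.333). This direction rested on WT mock 2, since without that library *axe1-5* mock lay 0.327 percentage points below WT mock. In *axe1-5* the share averaged 8.64% with MeJA and 10.1% without (difference -1.49 percentage points, exact permutation p = 0.333, n = 2 each). Without summits in the heptamer-rich bins described further on, most of which belong to *axe1-5* mock 2, the difference was -0.231 percentage points, and -0.0308 without satellite summits as well. With so few libraries neither comparison could reach a threshold of 0.05.

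**Figure D1:**
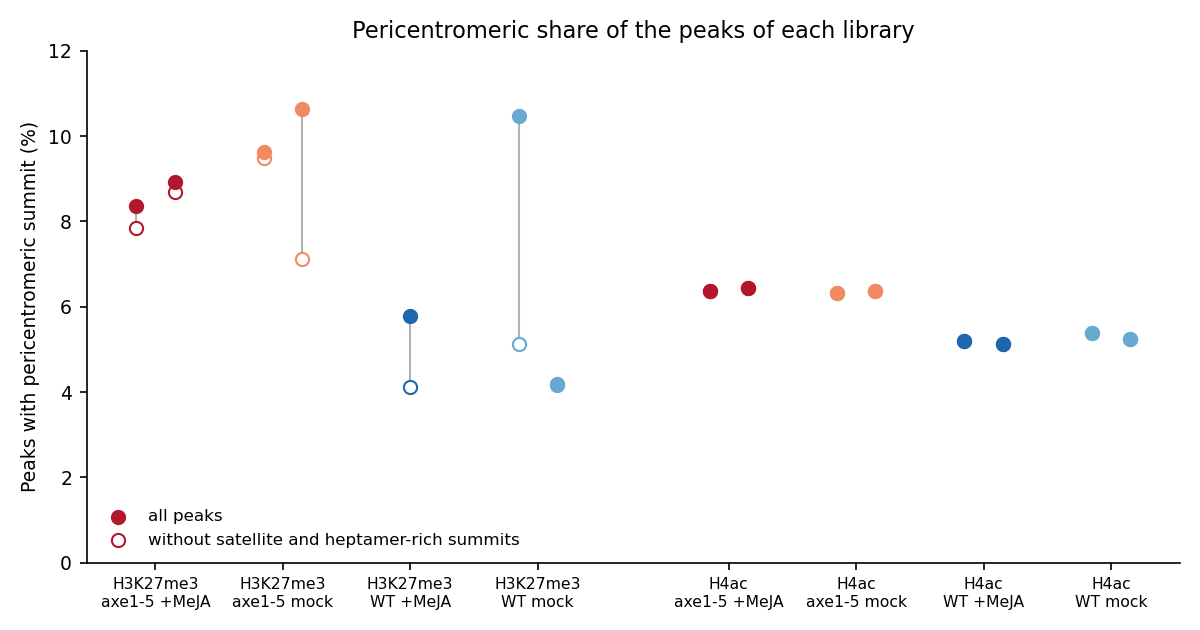
Percent of peaks with a pericentromeric summit in each library, H3K27me3 on the left and H4ac on the right. Filled points are all peaks and open points leave out summits on the 178-bp satellite or in heptamer-rich bins; WT mock 1 drops to 5.14% and *axe1-5* mock 2 to 7.12%, after which the 4 *axe1-5* libraries all lie above the 3 WT libraries.

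Set against H4ac, an active mark of the same plants, the H3K27me3 lists had the larger pericentromeric share. It averaged 8.28% in the 7 H3K27me3 libraries and 5.81% in the 8 H4ac libraries (difference 2.48 percentage points, exact permutation p = 0.0171, 0.0385 after Benjamini-Hochberg adjustment over 9 tests). The ranges overlapped, with 4.19 to 10.6% for H3K27me3 and 5.12 to 6.44% for H4ac. Satellite summits carried part of this difference, which without them was 1.46 percentage points and no longer passed (p = 0.145 by the exact permutation test). Lists cut to the same number of top peaks gave 2.96 percentage points (p = 0.0737 by the exact permutation test). Inputs served both marks, so the 2 sets of lists were not independent, and the test did not take this pairing into account. In WT mock 2 the order was reversed, with 4.19% for H3K27me3 and 5.26% for H4ac, unlike in the other libraries with both marks.

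A pair of blocks of telomere-like sequence was largely covered by H3K27me3 peaks in *axe1-5* and almost bare in WT. Counting TTTAGGG and CCCTAAA in full 10 kb bins, 73.0% of the 11911 bins of the genome held at least 1 copy and the median was 1. The count reached 40 or more in 37 bins (0.311%), all inside the windows, while no full bin on the arms exceeded 19. The incomplete last bin at the end of each chromosome was not counted. Counted in 300-base windows, the arms reached 30 copies, as did the pericentromeric windows. The minimum of 40 was chosen after the values had been seen, and what follows is a description without a test. Of these bins, 28 lay between 15090001 and 15430000 on chromosome 1, beside centromere 1, where the annotation lists 29 pseudogenes and 1 protein-coding gene. Another 8 lay between 3190001 and 3270000 on chromosome 4, which has 5 pseudogenes and no protein-coding gene, and 1 lay on chromosome 3.

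H3K27me3 peaks covered 65.6% and 71.5% of the 36 bins on chromosomes 1 and 4 in *axe1-5* +MeJA 1 and 2, and 51.0% and 75.1% in *axe1-5* mock 1 and 2. In WT they covered 0.00% with MeJA and 0.91% and 0.21% in mock 1 and 2. With the blocks of both chromosomes pooled, no *axe1-5* value was near a WT value. The chromosome 1 block alone was covered to 59.9%, 92.0%, 40.1% and 75.6% in these *axe1-5* libraries. The chromosome 4 block was covered to 85.5%, 0.00%, 89.3% and 73.4%. There *axe1-5* +MeJA 2, at 0.00%, equalled the WT lists. The 8 H4ac libraries had no peak base in these bins. The bin on chromosome 3, with 43 copies, carried no H3K27me3 peak in any of the 7 lists.

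Depth and fragment model differed between the libraries, and their part in the block coverage was not tested. *axe1-5* mock 2 kept 1439377 tags with a modelled fragment of 53 bp and WT mock 1 kept 1976886 tags with 52 bp, and they covered 75.1% and 0.91% of the blocks. *axe1-5* mock 1 and WT mock 2 kept 8879066 and 8681380 tags and covered 51.0% and 0.21%, though with modelled fragments of 282 and 54 bp.

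**Figure D2:**
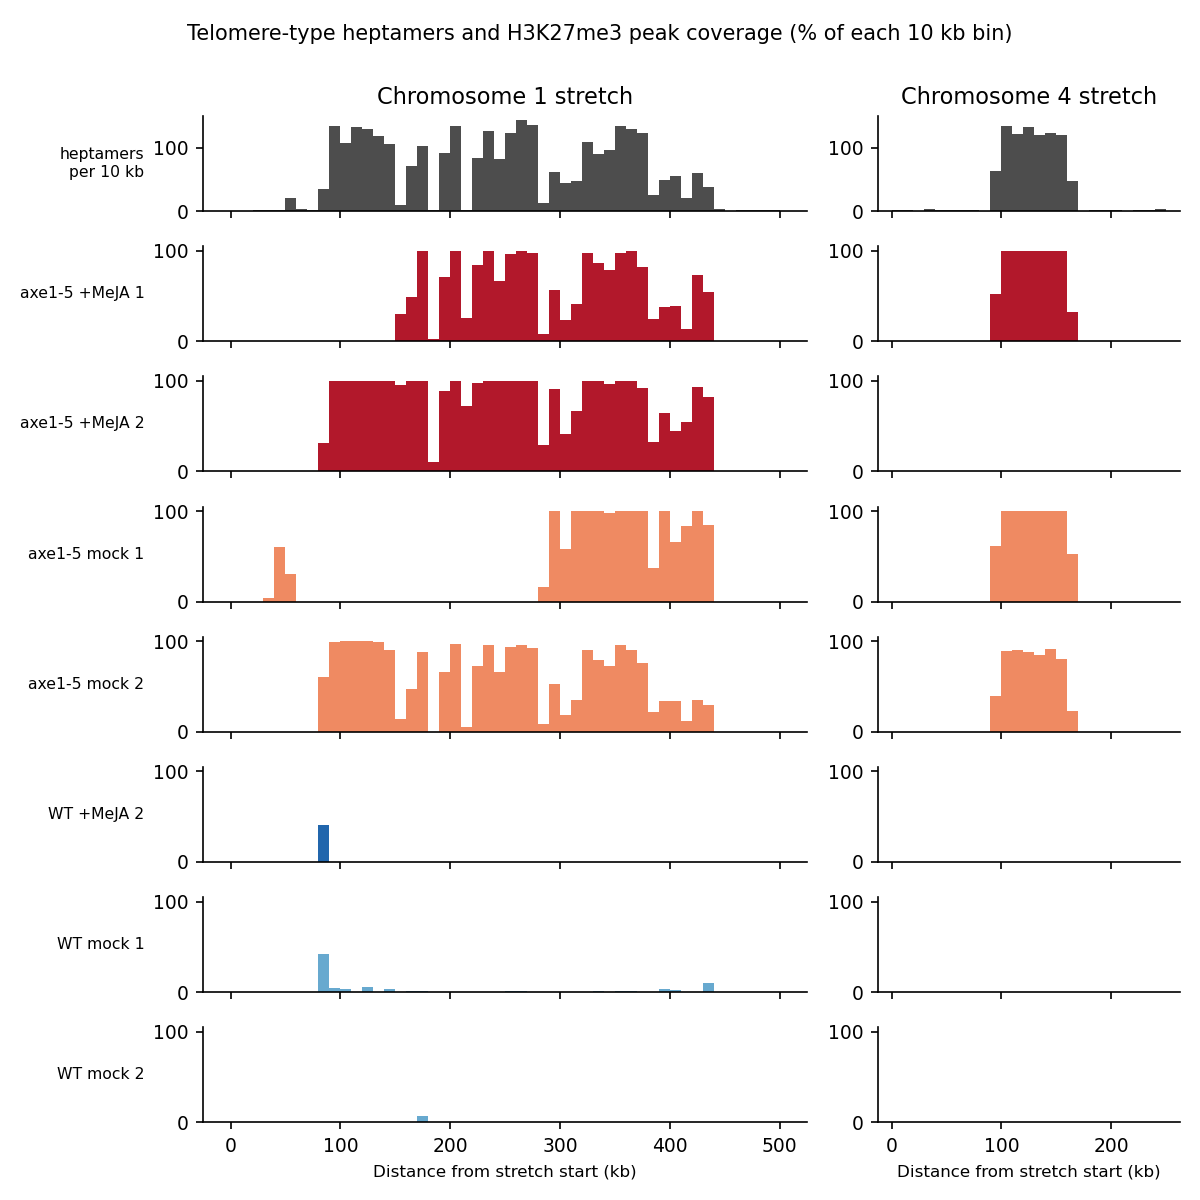
Top row, copies of the heptamer per 10 kb bin; other rows, percent of each bin covered by H3K27me3 peaks in each library, along the stretches of chromosome 1 (left) and chromosome 4 (right). The *axe1-5* libraries cover 51.0 to 75.1% of the heptamer-rich bins and the WT libraries 0.00 to 0.91%, with some stretches empty in single *axe1-5* lists.

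Within the chromosome 1 stretch, bins poor in heptamers were mostly less covered than their neighbours, with exceptions. In the bin starting 190 kb into the plotted stretch, with 91 copies, the coverage was 71.1%, 89.3% and 65.8% in *axe1-5* +MeJA 1, *axe1-5* +MeJA 2 and *axe1-5* mock 2. In the bin before it, with 1 copy, it was 2.76%, 10.98% and 0.00%. The long peaks of *axe1-5* +MeJA 2 ran across some poor bins, covering 71.7% of the bin starting at 210 kb, which has 2 copies. At the edge of the block WT was not bare: the bin starting at 80 kb, with 35 copies, was covered to 31.1% in *axe1-5* +MeJA 2 and 61.0% in *axe1-5* mock 2, against 41.2% in WT +MeJA 2 and 41.7% in WT mock 1. Over all bins of the windows, those with fewer than 5 copies were covered to 2.35%, 5.61%, 6.68% and 0.838% in the *axe1-5* libraries. The 100 bins with 5 to below 20 copies were covered to 3.44%, 8.41%, 10.1% and 0.830%. The 13 bins with 20 to 39 copies reached 14.2%, 34.4%, 45.3% and 11.1%. Among these 13 are the bin with 35 copies named above and bins with 26, 20 and 38 copies in or beside the chromosome 1 block. That class is thus not separate from the block. The WT lists covered 0.392%, 1.08% and 1.14% of the bins with fewer than 5 copies and 3.17%, 3.98% and 0.00% of those with 20 to 39. Of the bins with 5 to below 20 copies they covered 0.0406%, 0.179% and 0.721%.

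Coverage was not uniform among the *axe1-5* lists. *axe1-5* mock 1 had no peak in 16 of the 28 bins on chromosome 1, *axe1-5* +MeJA 1 had none in 6 of them, and *axe1-5* +MeJA 2 had none in the 8 bins on chromosome 4, while *axe1-5* mock 2 touched all 36. Whether these empty stretches lacked the mark, or very long peaks there are missing from the lists, could not be told from the files, and it bears on the coverage of these 3 lists and on the counts of bins that follow. Here 11 bins passed a difference of at least 25 percentage points between the lowest *axe1-5* and the highest WT list. All 11 were heptamer-rich bins of the windows, against 0.0924% of bins genome-wide and none of the 9511 bins on the arms. With 3 of the 4 *axe1-5* lists required, 58 of 2400 bins in the windows passed, 28 of them heptamer-rich, beside a genome-wide 0.957%. In the other direction, no bin of the genome was covered 25 percentage points more in both WT mock lists than in every *axe1-5* list. Few bins could have passed that rule. WT mock 1 covered 1.05% of the windows and 1.29% of the arms, against 7.69% and 18.4% in *axe1-5* mock 1. The 2 directions are therefore not comparable.

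In *axe1-5* the peaks in the blocks had higher fold enrichments than the pericentromeric peaks as a whole. Their median fold enrichment over input was 14.5 and 14.3 in *axe1-5* +MeJA 1 and 2 (48 and 13 peaks). In *axe1-5* mock 1 and 2 it was 16.7 and 21.2 (7 and 284 peaks). The medians over all pericentromeric peaks, those in the blocks included, were 6.48, 5.30, 5.88 and 12.4 in the same order. The 20 peaks of WT mock 1 in the blocks had lower medians than its pericentromeric peaks as a whole, with values of 9.2-fold and 154.5 bp against 10.4-fold and 228 bp over all pericentromeric peaks of that list. The strongest pericentromeric peak of *axe1-5* mock 2, at 70.5-fold, has its summit in the chromosome 1 sequence printed above. The longest single pericentromeric peak of the series, 71426 bp in *axe1-5* mock 1, spanned the chromosome 4 block as 1 peak, which *axe1-5* mock 2 divided among 108 summits. The next in length, of 67103 and 61386 bp, were *axe1-5* +MeJA 2 peaks in the chromosome 1 block. The blocks took 28.9%, 15.6%, 9.95% and 56.1% of the pericentromeric bases under peaks in the 4 *axe1-5* libraries.

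Of the bases in these blocks, 86.0% of 36-mers occur more than once in the genome, against 24.9% in the windows as a whole. Reads from such sequence can align in several places, so the position of a peak within a block, and which block it came from, is less certain than elsewhere. Not every summit sat on the heptamer itself. Of the summits in the chromosome 1 block 58.8%, and in the chromosome 4 block 67.2%, had at least 1 copy within 150 bp, against 4.86% of the other pericentromeric summits and 5.02% of arm summits.

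A second repeat-borne group was nearly confined to 3 lists. In WT mock 1, 289 of 576 pericentromeric summits (50.2%) lay in a 178-bp tandem satellite, and in WT +MeJA 2 it was 41 of 136 (30.1%). *axe1-5* mock 2 had 39 of 908 (4.30%), while the 3 other *axe1-5* lists had 4, 1 and 1 and WT mock 2 had 0. The H4ac lists had none. These 3 libraries kept the fewest tags, 577986 to 1976886, against 5464316 to 8879066 in the others, and the part of depth in these peaks was not tested. The 289 satellite peaks of WT mock 1 had a median length of 243 bp and a median fold enrichment of 10.9, and 208 of them fell between 11.6 and 12.1 Mb of chromosome 5. They made chromosome 5 the richest in that list, with 287 of its 576 peaks.

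A peak over ribosomal RNA genes was seen in WT lists alone. The rRNA gene AT3G41768 and the 5.8S rRNA gene AT3G41979 (chromosome 3, 14197677 to 14199916) lay under 1 peak of 12340 bp in WT +MeJA 2 (6.61-fold) and 1 of 13557 bp in WT mock 1 (4.23-fold). The 4 *axe1-5* lists, WT mock 2 and the 8 H4ac lists had no peak there. Both WT lists with the peak are among the shallow ones, and *axe1-5* mock 2, which is shallow too, lacked it.

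**Figure D3:**
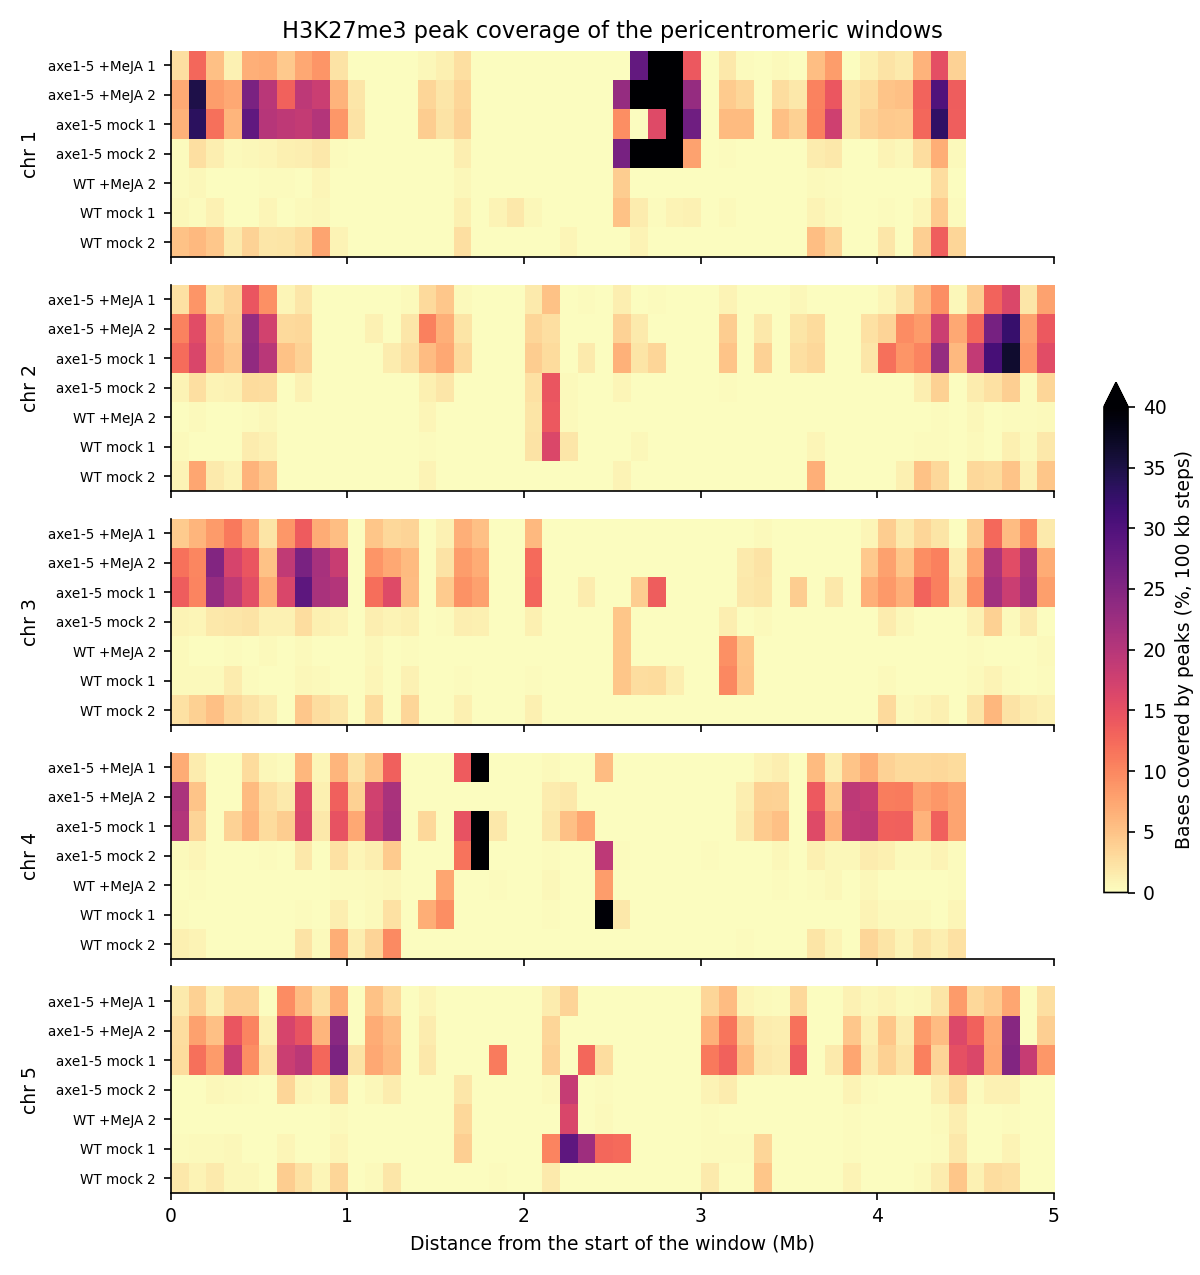
Percent of bases under H3K27me3 peaks in 100 kb steps along each window, 1 panel per chromosome and 1 row per library, with the colour scale ending at 40%. The darkest steps are the heptamer blocks of chromosomes 1 and 4 in *axe1-5* and, at 39.6%, a step of chromosome 4 in WT mock 1.

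Against the arms, pericentromeric peaks had fewer summits in protein-coding genes and sat on more repeated sequence in each of the 7 libraries. Summits in protein-coding genes made up 43.6%, 53.3%, 53.2% and 33.8% of the pericentromeric peaks in *axe1-5* +MeJA 1 and 2 and *axe1-5* mock 1 and 2, and 53.7%, 21.4% and 63.9% in WT +MeJA 2 and WT mock 1 and 2, while the arms gave 69.4 to 83.4%. The mean difference was -29.6 percentage points (exact sign-flip permutation p = 0.0156, the smallest possible with 7 libraries, adjusted 0.0385). The windows make up 20.1% of the genome and hold 6.93% of its protein-coding genes. The lower share of such summits thus went with a lower gene density of the windows as a whole. Summits in pseudogenes made up 3.65 to 14.7% of pericentromeric peaks and 1.97 to 2.99% of arm peaks. Repeated 36-mers within 150 bp of the summit averaged 23.8% in the windows and 3.65% on the arms (mean difference 20.1 percentage points, higher in 7 of 7 libraries, exact sign-flip permutation p = 0.0156, adjusted 0.0385). The windows and arms themselves differ as much, with 24.9% and 3.67% of all their 36-mers repeated, so that the peaks stood near the level of the region they lay in. Without satellite and heptamer-rich summits the differences were -20.8 and 8.86 percentage points and kept that p.

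Peaks of H4ac in the same condition and replicate overlapped fewer pericentromeric than arm peaks. The overlap averaged 14.4% in the windows and 21.0% on the arms (mean difference -6.63 percentage points, lower in 7 of 7 libraries, exact sign-flip permutation p = 0.0156, adjusted 0.0385). It was largest in the lists of long peaks, being 31.1% and 28.2% in the windows in the 2 lists of long peaks and 2.43 to 21.5% in the other 5. H4ac peaks covered on average 6.14% of the windows and 26.7% of the arms (8 libraries), so that the lower overlap went with a lower H4ac coverage of the windows as a whole.

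Peak length and fold enrichment did not pass a test between the windows and the arms. Median length was 563, 2155, 2847.5 and 219.5 bp in the windows in *axe1-5* +MeJA 1 and 2 and *axe1-5* mock 1 and 2, and 202.5, 228 and 667.5 bp in WT +MeJA 2 and WT mock 1 and 2. On the arms it was 597, 2206, 2919 and 188 bp in *axe1-5* and 169, 198 and 719 bp in WT. Pericentromeric peaks were the longer in the 3 shallow lists, by 30 to 33.5 bp, and the shorter in the 4 others (mean difference -16.1 bp, exact sign-flip permutation p = 0.359). By mean length the direction turned, to 166 bp longer in the windows (p = 0.0625 by the same exact test). The ratio of median fold enrichments, windows over arms, was -0.09 on the log2 scale (exact sign-flip permutation p = 0.188), lower in 4 of 7 libraries.

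**Figure D4:**
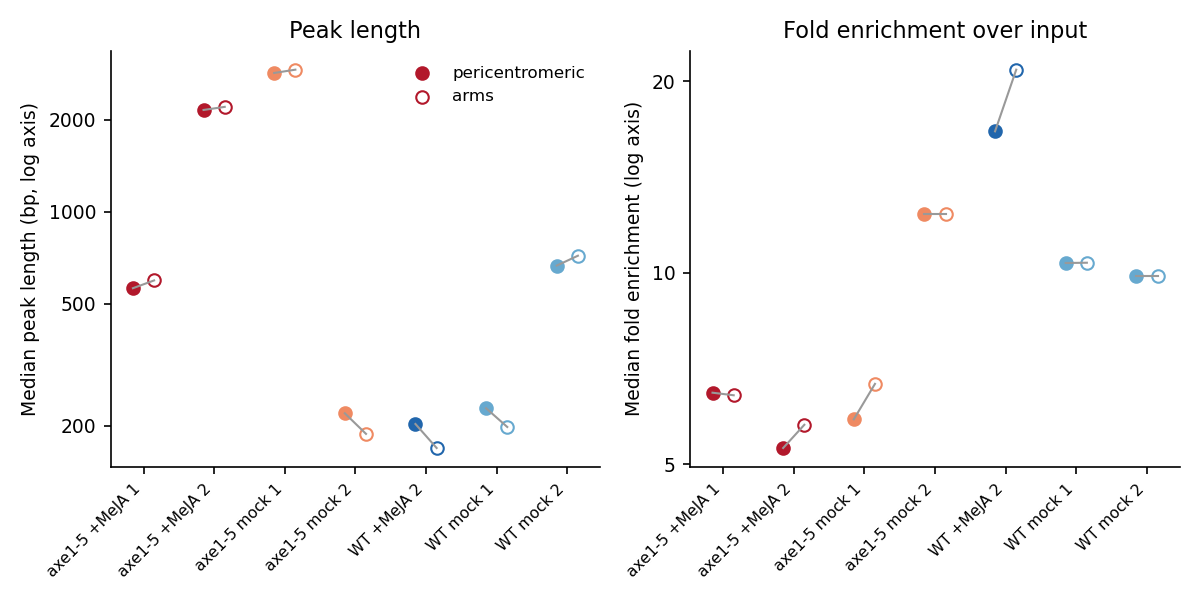
Median peak length (left) and median fold enrichment (right) of pericentromeric peaks (filled) and arm peaks (open) in each H3K27me3 library, on log axes. The 2 values of a library lie close together, whereas libraries differ from 202.5 to 2847.5 bp in pericentromeric length.

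When overlapping peaks of the 7 lists were merged, 916 loci in the windows and 5106 on the arms resulted. In the windows 459 loci (50.1%) came from a single library, 332 of them from WT mock 1, and 34 (3.71%) from all 7. On the arms 638 (12.5%) came from a single library and 920 (18.0%) from all 7. Replicates shared fewer pericentromeric than arm peaks in each of the 3 conditions with 2 libraries. For *axe1-5* mock 2 against mock 1 this gap, 85.4% against 96.8%, was gone without satellite and heptamer-rich summits (97.1% and 96.8%). For mock 1 against mock 2 the gap, 46.2% against 53.3%, stayed without them (45.5% and 53.3%). Without them it also stayed for *axe1-5* +MeJA 2 against 1 (71.9% and 77.8%) and was small for +MeJA 1 against 2 (97.75% and 98.01%). The widest gap was in WT mock 1, where 28.6% of pericentromeric and 93.9% of arm peaks overlapped a peak of WT mock 2, and 61.8% of the pericentromeric ones without satellite and heptamer-rich summits.

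The 34 loci common to all 7 libraries lay mostly in genes, 30 of them with the strongest summit in a protein-coding gene. Ranked by their lowest fold enrichment, the first lay on chromosome 1 from 16807759 to 16819480, with its strongest summit in the ncRNA gene AT1G07257, beside the protein-coding gene AT1G44191. It stood at 13.8, 15.04, 15.2 and 31.9-fold in *axe1-5* +MeJA 1 and 2 and *axe1-5* mock 1 and 2, and at 33.4, 18.4 and 20.9-fold in WT +MeJA 2 and WT mock 1 and 2. The second was *SAP* (AT5G35770, STERILE APETALA), needed for flower and ovule development, followed by the RNI-like gene AT4G05475. *MCT1* (AT1G37140), coding for a MEI2-like RNA-binding protein, *GH3.1* (AT2G14960), of the family that joins auxin to amino acids, and *PR1* (AT2G14610), the pathogenesis-related marker of salicylic acid responses, followed. Their lowest values lay between 11.3 and 13.4-fold. *PR1* had 12.2, 11.3, 15.1 and 15.9-fold in *axe1-5* and 25.03, 14.5 and 13.6-fold in WT. Fold enrichments are not on 1 scale between lists, which differ in tags and input.

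Loci with a peak in all 4 *axe1-5* libraries and in no WT library numbered 65 of 916 in the windows (7.10%), beside 173 of 6022 (2.87%) over the whole genome and 108 of 5106 (2.12%) on the arms. Of the 65, 28 had their strongest summit in a protein-coding gene, 13 in a pseudogene, 2 in another gene and 22 outside genes. An H4ac peak of at least 1 list, of any condition, overlapped 32 of the 65. The same held for 16 of the 34 loci common to all 7 libraries, so this overlap was not particular to the *axe1-5* loci. The first in rank was the heptamer locus on chromosome 1 from 15288410 to 15302093, with 29.2, 16.2, 21.3 and 70.5-fold in *axe1-5* +MeJA 1 and 2 and *axe1-5* mock 1 and 2. Next came an intergenic locus beside the lncRNA gene AT3G05915 (lowest value 9.21-fold), the pseudogene AT2G07420 (8.79-fold), the terpenoid synthase gene AT3G29430 (7.95-fold) and the pseudogenes AT2G13910 (7.93-fold) and AT2G14420 (7.88-fold). The count was 148 without *axe1-5* mock 2, 109 without WT mock 2 and 20 with a score of at least 100. Absence from the WT lists has to be read with their depth, since WT +MeJA 2 and WT mock 1 kept 577986 and 1976886 tags.

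Protein-coding genes were also counted one by one. A summit in all 4 *axe1-5* libraries and no WT library was found in 28 of 1902 protein-coding genes of the windows (1.47%), beside 0.463% of all protein-coding genes and 0.388% on the arms. They included *ACS11* (AT4G08040), an ethylene-synthesis enzyme, with 7.29, 5.60, 6.48 and 12.4-fold in *axe1-5* +MeJA 1 and 2 and *axe1-5* mock 1 and 2. *HDG10* (AT1G34650), a homeodomain gene, had 7.29, 4.43, 5.09 and 10.6-fold, and *PRB1* (AT2G14580), a basic relative of *PR1*, had 6.08, 6.88, 8.85 and 10.6-fold. *TED6* (AT1G43790), of xylem vessel formation, *PEN3* (AT5G36150), a triterpene synthase, the transposase gene AT3G30200 and the F-box genes AT3G44060 and AT3G44090 were others. These genes were picked from the 28 after their values had been seen. In the opposite direction, 1 of the 1902 genes of the windows had a summit in both WT mock libraries and none in *axe1-5*, beside 12 of 27444 genes (0.0437%) over the whole genome.

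In the windows 3 of 916 loci (0.328%) had a peak in both WT mock libraries and in no *axe1-5* library. The share was 0.0996% of loci genome-wide and 0.059% (3 of 5106) on the arms. The 3 loci of the windows lay on chromosome 5 from 12881655 to 12883203 (6.90-fold in WT mock 1 and 8.10-fold in WT mock 2) and from 12872295 to 12873575, and on chromosome 2 from 5201936 to 5204856. None had its summit in a gene, and repeated 36-mers made up 88.3 to 100% of the bases around their summits. The count was 342 without WT mock 2 and 13 without WT mock 1.

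For MeJA, 6 of 916 loci in the windows (0.655%) were present in both *axe1-5* +MeJA libraries and neither *axe1-5* mock library. The share was 1.61% of loci genome-wide and 1.78% (91 of 5106) on the arms. Of the 6 loci in the windows, 4 were found in no other library, over AT1G44895 (annotated as a minichromosome maintenance protein), AT4G08550 (an electron carrier), and the pseudogenes AT3G29778 and AT2G05340. All 4 were weak, with lowest values of 3.15 to 4.37-fold. The count moved with each *axe1-5* library, to 55 and 19 without *axe1-5* +MeJA 1 and 2 and to 142 and 11 without *axe1-5* mock 1 and 2, and it was 31 with summits merged within 500 bp in place of overlapping peaks. Another 4 loci were found in WT +MeJA alone, the first on chromosome 1 from 16175804 to 16175932 at 25.03-fold, where the printed sequence holds a long run of A.

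Regulators in the windows ranged from a summit in all 7 libraries to a summit in none. Of 23 regulators looked up, 12 had a summit in at least 1 library, 3 of them in all 7, beside 351 and 28 of the 1902 protein-coding genes of the windows. *SAP* had 13.4, 16.1, 16.9 and 26.5-fold in *axe1-5* and 33.4, 26.3 and 21.9-fold in WT. *LSH1* (AT5G28490), of light-dependent seedling growth, and *AGL44* (*ANR1*, AT2G14210), a MADS-box regulator of root responses to nitrate, were the 2 others. *KNAT1* (AT4G08150), a class I KNOX homeobox gene of the meristem, had 10.5, 9.68, 11.8 and 19.5-fold in *axe1-5*, 16.7-fold in WT +MeJA 2 and 15.1-fold in WT mock 2, with no peak in WT mock 1.

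The seed coat regulators *TT1* (AT1G34790) and *TT2* (AT5G35550) differed. *TT1*, a zinc finger gene, had a summit in 6 libraries, whereas *TT2*, a MYB gene of proanthocyanidin synthesis, had 6.39, 4.90 and 4.67-fold in *axe1-5* +MeJA 1 and 2 and *axe1-5* mock 1 and no summit in *axe1-5* mock 2 or any WT library. *AGL79* and *PDF2* (AT4G04890, PROTODERMAL FACTOR 2) were marked in 6 libraries and *MYB74* in 5. *NF-YB7* (AT2G13570) had a summit in *axe1-5* +MeJA 2 alone, at 3.26-fold. *MYB121* (AT3G30210) was overlapped by a peak in all 4 *axe1-5* libraries and no WT library, with the summit inside the gene in 2. Of the auxin response factor cluster of chromosome 1, *ARF14* had a summit in both *axe1-5* +MeJA libraries, at 5.67 and 4.66-fold, and was overlapped by a peak in *axe1-5* mock 1 too, and *ARF12*, *ARF15*, *ARF20*, *ARF21* and *ARF22* had none. *CRY1*, *AN3*, *RAP2.6*, *QQS*, *SRS8* and *bZIP60* had no summit in any list.

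**Figure D5:**
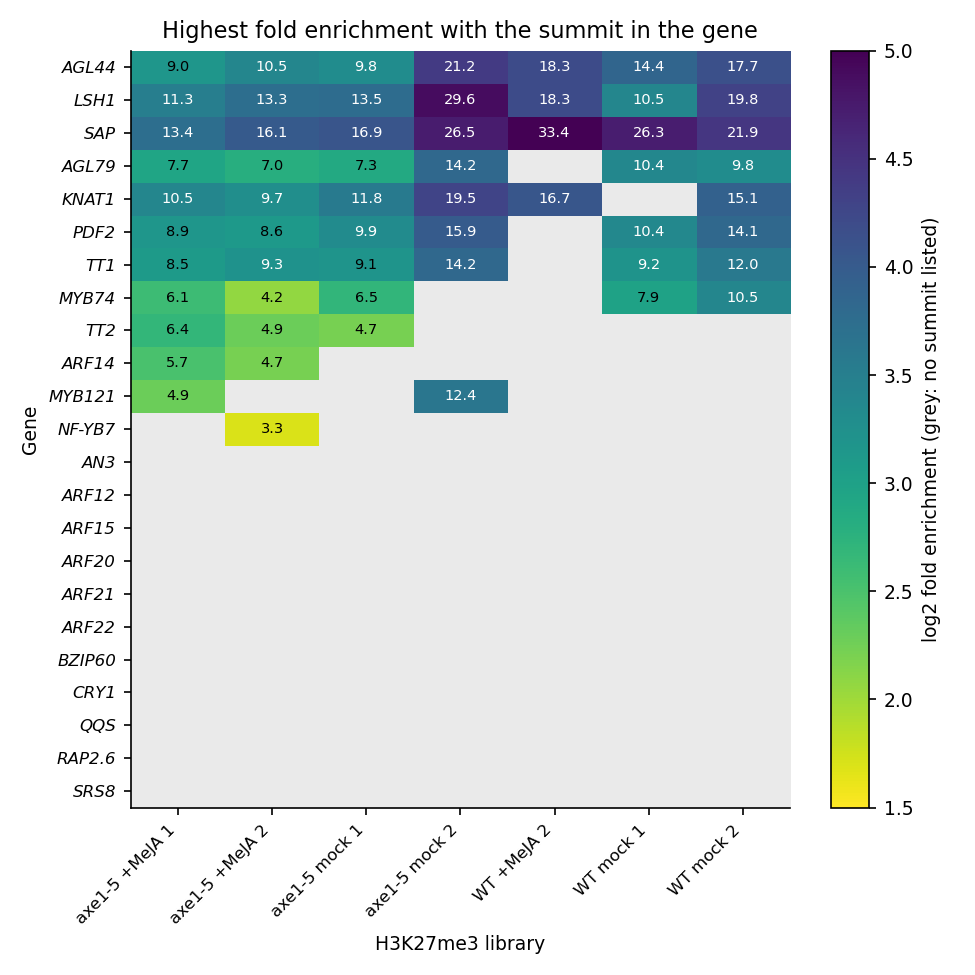
Fold enrichment of the strongest peak summit inside each of 23 regulators of the windows (rows) in each H3K27me3 library (columns), grey where no summit was listed. *AGL44*, *LSH1* and *SAP* are marked in all 7 libraries and 11 genes in none.

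By family, the share of genes with a summit in at least 1 H3K27me3 library was 18.4% (351 of 1902) over all protein-coding genes of the windows and 21.8% on the arms. F-box genes stood at 23 of 47 in the windows and 53.3% on the arms, and cytochrome P450 genes at 9 of 15 and 49.4%. MADS-box genes had 2 of 12 against 48.9%, MYB genes 5 of 15 against 42.6%, disease resistance genes 2 of 11 against 33.0% and kinases 14 of 64 against 15.04%. Genes annotated as transposon or transposase were marked in 1 of 28 cases against 16.7% on the arms (8 of 48). Ulp1 protease genes were marked in 0 of 6 in the windows and 0 of 3 on the arms. No test was made of these counts.

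Outside the repeats, the densest 100 kb of chromosome 2, from 6200000 to 6300000, held 74 peaks, 51 of them with the summit in a protein-coding gene. They came from *axe1-5* +MeJA (20 and 12), *axe1-5* mock (10 and 19), WT +MeJA (1) and WT mock (4 and 8), and lay in a cluster with *PR1* and the uncharacterised gene AT2G14700. The densest bin of chromosome 3, from 11700000 to 11800000, held 58 peaks. The densest bins of chromosomes 1 and 4, with 109 and 104 peaks, were parts of the heptamer blocks, and that of chromosome 5, with 78 peaks, held 75 from WT mock 1.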

How the data were processed

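ChIP-Seq reads (50-bp, single-end) had been trimmed with Trimmomatic 0.36.5, aligned to TAIR10 with Bowtie and called against an input, library by library, with MACS 1.4.2 by the authors. Per the file headers, the tag count of each peak was made by the authors from de-duplicated reads, the deposited score is the negative log10 p-value multiplied by 10, and the fold enrichment, a ratio to input, and the FDR in percent are the authors' values. All listed nuclear peaks were used as deposited. The 2 organelle peaks of the WT +MeJA library were left out. Depth differs between lists, so absence of a peak is absence at that depth and at the caller's threshold.

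Genes came from TAIR10.1 (RefSeq), which does not label transposons separately. A summit was called satellite when the 1000 bases around it matched themselves best at a lag of 176 to 180 or 352 to 360 bp with identity over 0.5. Loci were merged overlapping peaks. Loci named were the first 3 to 6 of each presence pattern by lowest fold enrichment, with the 3 longest peaks, the densest 100 kb bin of each chromosome and fixed regulators and families. *EF1A* matched no symbol. Exact permutation (libraries) and sign-flip tests (within library) were two-sided, and procedures were tested on simulated lists. The members, lists and tests were chosen with earlier results of these data known. Results were recomputed for peaks scoring at least 100 or with FDR up to 5%, and with equal numbers of top peaks, midpoints, windows shortened or lengthened by 0.5 Mb at each end, each library left out, the replicate block, means, 50-mers, 36-mers within 500 bp, summit overlap, summits merged within 500 bp and 2-fold differences. Computation used scipy 1.17.1, pandas 2.3.3 and numpy 2.4.6 in Python 3.11.15.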

Additional observations from a re-analysis of the deposited data

Results flagged for a closer look

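Of 24 sets of per-library values examined for a single library far from the rest, 3 held one. The rule's rate of about 1 in 20 by chance assumes independent sets of normally distributed values. Here the sets overlap, since the 4 *axe1-5* libraries are also among the 7, so that rate is only a rough guide. All 3 concerned *axe1-5* mock 2. It had 284 summits in heptamer-rich bins, against 7 to 48 in the other *axe1-5* libraries and 0 to 20 in WT, far from the others both among the 7 H3K27me3 libraries and among the 4 of *axe1-5*. Its satellite summits, 4.295% of its pericentromeric peaks, stood apart from 0.195 to 0.524% in the other *axe1-5* libraries. The list has short peaks (median 219.5 bp in the windows), and by covered bases rather than summits it lay at 75.1% of the heptamer blocks, beside 51.0 to 71.5% in the other *axe1-5* libraries. The part of peak splitting in the summit count was not tested further.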

How the results depend on the processing

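Of 196 values recomputed under the alternatives, 172 kept their direction and side of the threshold (counts: within 1.5 times). The difference in median peak length turned positive with a score of at least 100 (36.4 bp), with shortened windows (16.5 bp) and as a difference of means (166 bp). The share in *axe1-5* mock against WT mock ran from -0.327 to 5.94 percentage points when 1 library was left out, turning without WT mock replicate 2. The share in *axe1-5* against WT ran from 1.26 to 4.40 percentage points with 1 library left out and was 0.704 with a score of at least 100 and 0.962 with shortened windows, and *axe1-5* +MeJA against mock was -4.24 with equal numbers of top peaks and -0.0308 without satellite and heptamer-rich summits. The H3K27me3 against H4ac difference no longer passed with equal numbers of top peaks (2.96 percentage points), without satellite summits (1.46) or without satellite and heptamer-rich summits (0.845). Leaving out satellite or heptamer-rich summits was chosen after seeing the data. Loci in all 4 *axe1-5* and no WT library numbered 20 with a score of at least 100 and 43 with shortened windows, and 66 to 148 with 1 library left out. Loci in both WT mock and no *axe1-5* library numbered 0 with that score and 3 to 342 with 1 library left out. Loci in both *axe1-5* +MeJA and neither *axe1-5* mock library numbered 3 with shortened and 10 with lengthened windows, 31 with summits merged, and 11 to 142 with 1 library left out. With equal numbers of top peaks these 3 counts were 21, 0 and 2. The causes were not tested.

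With the replicate number as a block, *axe1-5* exceeded WT by 1.66 percentage points (exact permutation within numbers, p = 0.333), *axe1-5* mock exceeded WT mock by 2.81 and *axe1-5* +MeJA lay -1.49 from *axe1-5* mock. The replicate block changed no call. The labels do not say that a number marks a shared batch, and deviations of same-numbered libraries over 240 steps of 100 kb correlated at -0.11, 0.26 and -0.41 between conditions, so the numbers were not taken to pair the libraries. Depth limits absence: WT +MeJA kept 577986 tags.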
